A study of Mus musculus with 8 samples.

Results

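Chromatin accessibility on chromosome 3 within 20 Mb of Lmna was examined in Lamin-A KO and wild type (WT) macrophages grown from mouse bone marrow. Overlapping ATAC-seq peaks of 8 libraries were merged into 76751 regions, and the 1431 whose midpoint lay within 20 Mb of the Lmna gene span (mm10, chr3:88481148-88509932) were kept. The 7 regions with a midpoint in the span itself were left out, because a targeted gene cannot be read as accessibility alone. Of the 1431 regions, 482 lay on the centromere side (lower coordinates) and 949 on the telomere side. ATAC-seq uses the Tn5 transposase to cut and tag open DNA, so a peak marks a stretch where cuts pile up above the local background.

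There were 4 groups of 2 libraries each: Lamin-A KO macrophages given LPS, untreated Lamin-A KO macrophages, WT macrophages given LPS and untreated WT macrophages. LPS is lipopolysaccharide, a bacterial cell wall component that macrophages sense through TLR4, and it was given for 6 h. All cells came from bone marrow cultured for 7 days and had been frozen with 5% DMSO before tagmentation. The labels give neither the mouse strain, the age and sex of the animals, the dose of LPS nor the part of Lmna that was targeted. They do not say whether the 2 libraries of a group came from separate animals, so the p-values below measure the spread between these libraries, which may be technical.

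Lmna encodes the A-type lamins, filament proteins that line the inner face of the nuclear envelope and tether stretches of silent chromatin there. The DNA around a gene that was targeted in embryonic stem cells is inherited together with the targeted allele, so a knockout can also carry the stem cell donor's alleles in a flanking interval, and its length depends on the number of backcrosses. Whether these animals carried such alleles was not tested, since the labels name no strain and the peak lists hold no genotypes. Myeloid and immune genes lie on both sides of Lmna: the Fc receptor-like genes and Cd5l lie on the centromere side, and the S100 calcium-binding protein genes and the cathepsin genes Ctss and Ctsk lie on the telomere side.

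Start-site windows of 5 genes are shown because the region over each was called or ranked differently in the 2 genotypes. Each runs from 250 bases before to 50 bases after the start of the transcript, 5′ to 3′ in the gene's direction, and was taken from RefSeq on GRCm38.p6. Capitals mark matches, on either strand, to 5 motifs searched by their letters. These were GAGGAAGT for PU.1, TGANTCA for AP-1, TGACGTCA for CRE, GGGCGG for the GC box and the letters CCAAT for the CCAAT box.
Dclk2 (chr3:86920835-86921134, minus strand): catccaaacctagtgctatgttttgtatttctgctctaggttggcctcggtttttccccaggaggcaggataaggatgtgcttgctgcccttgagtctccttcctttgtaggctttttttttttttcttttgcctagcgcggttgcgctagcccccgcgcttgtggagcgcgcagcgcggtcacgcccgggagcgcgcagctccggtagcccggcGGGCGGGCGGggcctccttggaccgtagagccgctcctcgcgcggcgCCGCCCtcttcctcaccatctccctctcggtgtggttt
Fcrls (chr3:87263475-87263774, minus strand): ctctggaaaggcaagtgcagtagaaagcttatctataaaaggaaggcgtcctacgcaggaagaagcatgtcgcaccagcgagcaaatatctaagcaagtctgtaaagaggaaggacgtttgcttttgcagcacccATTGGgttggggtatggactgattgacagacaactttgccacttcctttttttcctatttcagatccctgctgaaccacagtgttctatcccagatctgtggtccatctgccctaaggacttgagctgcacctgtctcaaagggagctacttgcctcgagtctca
Fcrl5 (chr3:87435532-87435831, plus strand): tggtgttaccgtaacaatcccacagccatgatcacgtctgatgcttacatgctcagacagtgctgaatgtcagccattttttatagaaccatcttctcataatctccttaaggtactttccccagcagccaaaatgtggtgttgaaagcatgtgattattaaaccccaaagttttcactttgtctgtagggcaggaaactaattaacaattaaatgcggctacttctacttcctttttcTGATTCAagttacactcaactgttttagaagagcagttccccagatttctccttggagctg
S100a8 (chr3:90668821-90669120, plus strand): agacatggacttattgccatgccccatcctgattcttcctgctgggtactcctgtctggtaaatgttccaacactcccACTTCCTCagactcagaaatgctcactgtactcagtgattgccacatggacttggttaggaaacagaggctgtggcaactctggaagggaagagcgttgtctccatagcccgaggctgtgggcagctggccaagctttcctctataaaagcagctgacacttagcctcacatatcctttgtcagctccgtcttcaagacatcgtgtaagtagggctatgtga
Fnip2 (chr3:79567630-79567929, minus strand): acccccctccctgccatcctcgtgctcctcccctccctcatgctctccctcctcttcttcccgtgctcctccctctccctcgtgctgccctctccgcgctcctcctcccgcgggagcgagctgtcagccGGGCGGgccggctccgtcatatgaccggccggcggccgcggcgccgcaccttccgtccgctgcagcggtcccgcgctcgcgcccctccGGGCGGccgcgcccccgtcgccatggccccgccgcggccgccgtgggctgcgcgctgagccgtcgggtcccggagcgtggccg
The Dclk2 window held 3 GC boxes, 2 of them overlapping each other, the Fnip2 window held 2, the Fcrls window held 1 CCAAT match, the Fcrl5 window 1 AP-1 match and the S100a8 window 1 PU.1 match. Over 32851 RefSeq start-site windows of this length, 35.7% held a GC box, 37.4% CCAAT, 7.81% AP-1, 3.20% PU.1 and 1.79% CRE. A match describes the letters in the window and is not a binding site.

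The lists held 49661 and 45442 peaks in the KO LPS libraries, 44504 and 47451 in the KO untreated libraries, 59750 and 55357 in the WT LPS libraries and 53942 and 55064 in the WT untreated libraries. Every KO list was thus shorter than every WT list, and absence from a list means no call there, not that the DNA was shut. The interval took 1.93% ± 0.0139 of the peaks of a KO list and 1.93% ± 0.0357 of the peaks of a WT list (SD, n = 4 each; exact permutation within treatment, two-sided p = 0.833). Of the macrophage markers, 5 of the 6 with an annotated start-site window had a region there in all 8 libraries, while the B cell markers Cd79a and Pax5 and 4 T and NK cell markers had none in any library. Of 4 erythroid and megakaryocyte markers, Klf1 had one in all 8 libraries and the others had none, and the stromal marker Col1a2 had none.

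Of the 1431 regions, 7 were called in all 4 KO and in no WT library (KO-only regions; 0.489% of the interval, against 0.0678% of all regions of the genome). The interval thus held 13.5% of the 52 KO-only regions of the genome. All 7 were within 50 kb of a gene, and their nearest genes were Dclk2, Cd5l, Fcrl1 and Tmem154 on the centromere side and Pip5k1a, Ctsk and Ptgfrn on the telomere side. An exact permutation of a region's calls within treatment cannot go below p = 0.0556, so no region was tested and the count is a description. Each region's place in a library's own list is given below as the percentile of its -log10 p there, where 100 is the strongest peak. Lists differ in length, so these percentiles describe a region within a library.

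The strongest KO-only region lay inside Dclk2 (chr3:86910251-86910743), 1.57 Mb from Lmna. Dclk2 encodes a doublecortin-like kinase that binds microtubules. Its percentiles were 61.7 and 58.4 in the KO LPS libraries and 61.1 and 75.4 in the KO untreated libraries, with no call in a WT library. The authors' fold enrichment over background was 11.6 and 10.3 in the KO LPS libraries and 11.9 and 16.5 in the KO untreated libraries. A region that stood in the stronger part of all 4 KO lists was thus called in none of the WT lists. A region over the Dclk2 start site (chr3:86920599-86921042, the first sequence above) was called in both untreated KO libraries, at percentiles 8.84 and 12.9, and in no other library. A region 26688 bp outside the gene (chr3:86947482-86947798) was called in 3 KO libraries and in no WT library.

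The next strongest KO-only region lay 23032 bp from Cd5l (chr3:87334648-87335050). Cd5l encodes a secreted macrophage protein that regulates lipid handling and inflammation. Its percentiles were 62.2 and 49.9 in the KO LPS libraries and 73.1 and 64.3 in the KO untreated libraries. The third lay 4430 bp outside Fcrl1 (chr3:87408235-87408558), a Fc receptor-like gene of B cells, with percentiles of 50.3 and 39.3 in the KO LPS libraries and 43.0 and 49.0 in the KO untreated libraries. The other 4 KO-only regions were weaker. That inside Ptgfrn (chr3:101105969-101106307), which encodes a membrane partner of tetraspanins, had percentiles from 29.7 to 37.9. That inside Ctsk (chr3:95499533-95499868), 491 bp from a start site, ran from 9.84 to 35.8, and Ctsk encodes cathepsin K, the collagen-cutting protease of osteoclasts. That inside Pip5k1a (chr3:95066658-95067012), a lipid kinase that makes PIP2, ran from 0.412 to 38.3, so that 1 of its 4 calls was near the bottom of its list. That near Tmem154 (chr3:84745751-84746063) ran from 3.36 to 8.46.

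In the reverse direction, 13 regions were called in all 4 WT and in no KO library (WT-only regions; 0.908% of the interval, against 0.861% of all regions). The WT-only share was close to that of the genome in the deposited lists, but with peaks of -log10 p of at least 20 alone there were 21 (1.47%, against 0.704% of all regions). With equal numbers of peaks per list there were 3 (0.210%, against 0.151% of all regions). Where a library's peaks had to cover at least 50% of a region, there were 19 (1.33%, against 0.999%). The strongest of the 13 lay inside Fcrl1 (chr3:87401208-87401873). Its percentiles were 55.2 and 46.1 in the WT LPS libraries and 75.6 and 79.8 in the WT untreated libraries. The second lay inside Sh3d19 (chr3:86110073-86110486), which encodes an adaptor protein with SH3 domains, with percentiles of 58.3 and 30.8 in the WT LPS libraries and 68.7 and 65.8 in the WT untreated libraries. Both stood in the upper part of the untreated WT lists and lower in the WT LPS lists, and went uncalled in every KO library.

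Of the other WT-only regions, those nearest to Cd5l (chr3:87322609-87322959) and to Fcrls (chr3:87299881-87300240) ran from 35.3 to 51.2 and from 8.98 to 43.6 in the WT lists. Fcrls encodes a secreted scavenger receptor-like protein that marks mouse microglia. Within 1 Mb of Lmna there were 3, inside Tmem79, Iqgap3 and Zbtb7b. Iqgap3 encodes a scaffold protein of dividing cells and Zbtb7b the transcription factor that directs T cells to the CD4 lineage. Their percentiles in the WT lists were 12.6 to 28.1 at Tmem79, 3.73 to 15.4 at Iqgap3 and 18.1 to 30.4 at Zbtb7b. The remaining 6 were near Kcna10, Dennd2d, Eps8l3 and the fibrinogen gene Fgg or had no gene within 50 kb, and none of them stood above percentile 40.1 in a WT list.

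The stretch from near Fcrls past Cd5l to Fcrl1 held 17 regions, of which 2 were KO-only, 3 were WT-only, 2 were held by all 8 libraries, 6 by a single library and 4 by another mix. Over all regions of the genome, 0.0678% were KO-only and 0.861% WT-only. The stretch starts at a WT-only region and ends at a KO-only region, so its limits follow the calls and raise their share. Its counts are a description. Along the chromosome, with the single-library regions left out, the WT-only regions starting at 87299881 and 87322609 were followed by a region starting at 87330794 that was called in 4 KO and 1 WT libraries. Next came a region starting at 87331981, called in the 2 untreated WT libraries alone, a region starting at 87333900, held by 3 KO and 4 WT libraries, and the KO-only region starting at 87334648. Regions starting at 87337898 and 87376638 were held by all 8 libraries, and 1 starting at 87376215 by 1 KO and 2 WT libraries. The WT-only region starting at 87401208 and the KO-only region starting at 87408235 stood in and beside Fcrl1. The region starting at 87330794 had percentiles of 67.6 and 47.2 in the KO LPS libraries and 62.6 and 71.8 in the KO untreated libraries, against 19.2 in the single WT library that held it, the first WT LPS library. Between 1 and 2 Mb on the centromere side, 3 of 45 regions were KO-only (6.67%) and 3 were WT-only (6.67%), and on the telomere side at the same distance none of 98 regions was either.

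**Figure D1:**
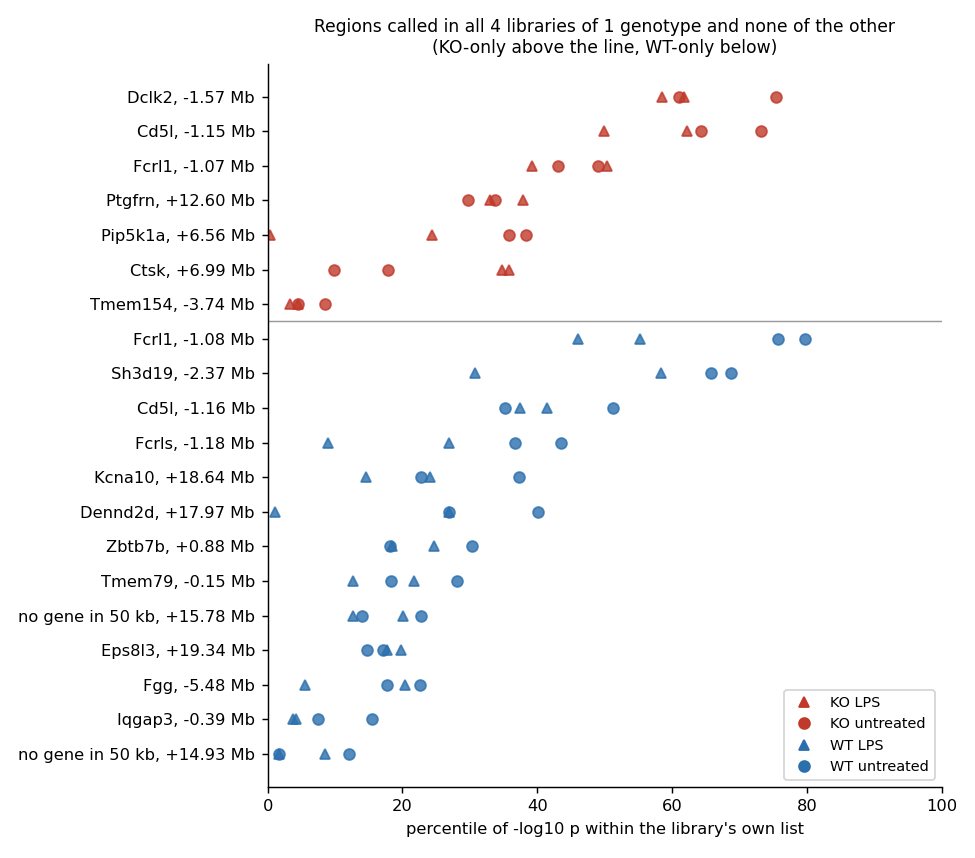
Percentile of each KO-only and WT-only region of the interval in the libraries that hold it (x axis, 0 to 100; y axis, nearest gene and distance from Lmna in Mb; points are libraries, triangles LPS and circles untreated). The Dclk2 and Cd5l regions lie furthest right among the 7 KO-only regions, and the regions inside Fcrl1 and Sh3d19 among the 13 WT-only regions.

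Within a treatment, a region was called KO-gained when both KO libraries held it and neither WT library did, and KO-lost in the reverse case. After LPS, 14 regions were KO-gained (0.978%, against 0.711% of all regions) and 99 were KO-lost (6.92%, against 6.94% of all regions). Without LPS, 17 were KO-gained (1.19%, against 0.735% of all regions) and 107 were KO-lost (7.48%, against 6.22% of all regions). Losses outnumbered gains in the interval as they did over all regions, in lists that were all shorter in KO. With equal numbers of peaks per list there were 33 gained and 35 lost after LPS (1452 and 1711 over all regions) and 31 gained and 53 lost without (1458 and 1597 over all regions). The LPS and the untreated comparisons share no libraries. By definition, the regions gained in both are the 7 KO-only regions and those lost in both the 13 WT-only regions, so what follows restates those counts as shares. The 7 are 50% of the 14 after LPS and 41.2% of the 17 without. Outside the interval, 45 regions were gained in both treatments, which is 8.46% of 532 after LPS and 8.23% of 547 without. The 13 are 13.1% of the lost regions of the interval after LPS and 12.1% of those without, and outside the interval the shares were 12.4% and 13.9%.

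The regions gained in 1 treatment alone included, in the untreated libraries, a region inside Kcnn3 (chr3:89578763-89579160), which encodes a calcium-activated potassium channel, with percentiles of 30.4 and 48.1 in the untreated KO libraries and no call in the untreated WT libraries. A region 12619 bp from Selenbp2 (chr3:94680784-94681124) stood at 33.3 and 68.8 in the untreated KO libraries. Both were also held by both KO LPS libraries and by 1 or 2 WT LPS libraries. After LPS they included a second region near Tmem154 (chr3:84748130-84748548), which all 4 KO libraries held, at 17.4 and 20.3 with LPS and at 69.5 and 76.4 without, while the WT LPS libraries had no call and the untreated WT libraries stood at 12.6 and 5.69.

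The Fcrl5 start site (the third sequence above) was among the KO-lost regions of the untreated libraries. Fcrl5 encodes an Fc receptor-like protein of B cells. Its region (chr3:87435436-87435922) had percentiles of 9.06 and 5.84 in the KO LPS libraries and no call in the untreated KO libraries, against 69.2 and 65.8 in the WT LPS libraries and 12.1 and 21.1 in the untreated WT libraries. It thus stood high in the WT LPS lists and near the bottom of the KO LPS lists. The Fcrls start site (chr3:87263388-87263869, the second sequence) was KO-lost after LPS, with no call in the KO LPS libraries and percentiles of 31.9 and 45.5 in the untreated KO libraries, against 17.7 and 15.9 in the WT LPS libraries and 65.6 and 64.3 in the untreated WT libraries. In WT its place in the list was thus lower in both LPS libraries than in both untreated ones.

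The KO-only and WT-only regions were also counted by distance from Lmna. Within 5 Mb on the centromere side, 4 of 259 regions were KO-only (1.54%) and 6 were WT-only (2.32%), and on the telomere side 0 of 240 were KO-only and 1 was WT-only (0.417%). From 5 to 20 Mb, 0 of 223 regions on the centromere side and 3 of 709 on the telomere side were KO-only. Inside the limit of 20 Mb, the last Mb held no KO-only region on either side, and neither did the first Mb beyond it. On the rest of chromosome 3, more than 20 Mb from Lmna, 4 of 2421 regions were KO-only (0.165%) and 35 were WT-only (1.45%).

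**Figure D2:**
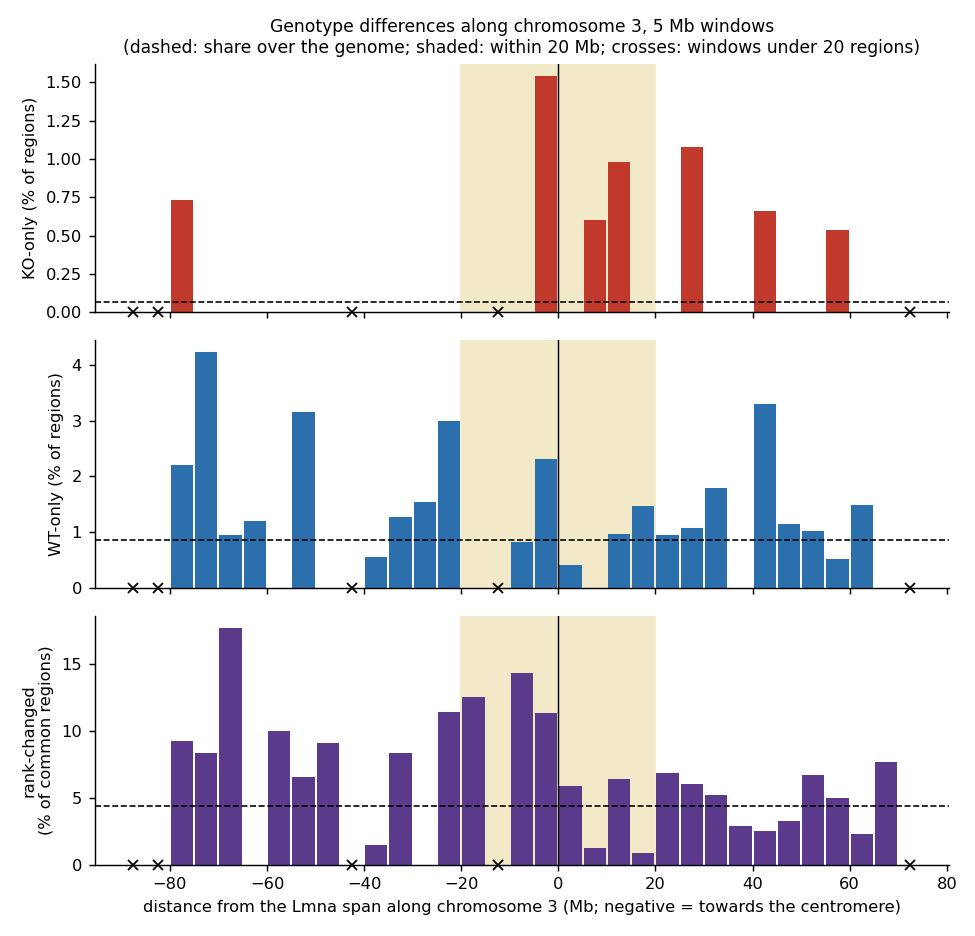
Shares of KO-only, WT-only and rank-changed regions in 5 Mb windows along chromosome 3 (x axis, distance from Lmna in Mb, negative towards the centromere; y axes, percent of the window's regions or common regions; dashed lines, share over the genome; crosses, windows with under 20 regions). The window from 5 Mb to 0 Mb on the centromere side stands at 1.54% KO-only, 2.32% WT-only and 11.3% rank-changed.

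To compare strength without the effect of list length, the 30960 regions called in all 8 libraries (common regions) were ranked within each library among themselves, and the percentiles were fitted by limma with genotype and treatment over all 30960. The interval held 614 of them. By this test, with Benjamini-Hochberg adjustment over all common regions and a threshold of 0.05, 20 ranked higher in KO (3.26%, against 2.87% of all common regions) and 14 ranked lower (2.28%, against 1.48%). Together 34 regions changed rank (5.54%, against 4.35%). They were 21 of 177 common regions on the centromere side (11.9%) and 13 of 437 on the telomere side (2.97%). Leaving out 1 library brought the counts to between 9 and 17 higher and between 4 and 10 lower, lowest without a WT untreated library, and the share over all common regions was smaller in each such fit too. The median difference over the 614 was -0.251 percentile points, against -0.233 over all common regions.

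The S100a8 start site had the largest rank difference among the higher regions. S100a8 encodes a subunit of calprotectin, an abundant protein of neutrophils and monocytes. Its region (chr3:90668775-90669330, the fourth sequence) stood at percentiles of 58.6 and 55.2 in the KO LPS libraries and 62.7 and 66.3 in the KO untreated libraries, against 7.76 and 7.94 in the WT LPS libraries and 32.8 and 24.1 in the WT untreated libraries. The groups did not overlap, and the difference was 42.5 points (SE 5.00, limma adjusted p = 0.000932). Whether more cells were open there or the cells were more open cannot be told apart in bulk libraries. Of the 5 neutrophil markers, S100a8 had a start-site region in 4 KO and 4 WT libraries, Ly6g in 2 KO and 4 WT libraries, and S100a9, Mpo and Elane in no library. Outside its start-site window, S100a9 had 1 region, which all 8 libraries held. Its rank difference was -2.94 points and it was not called.

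Fnip2, whose product binds folliculin in nutrient sensing through AMPK and mTORC1, held 3 of the 10 higher regions with the smallest adjusted p. The region over its start (chr3:79567668-79568429, the fifth sequence) stood at 89.8 and 87.5 in the KO LPS libraries and 89.1 and 88.9 in the KO untreated libraries, against 70.2 and 65.8 in the WT LPS libraries and 72.6 and 76.0 in the WT untreated libraries. The difference was 17.7 points (SE 2.15, limma adjusted p = 0.00115), with no overlap, and the summits of the KO and WT peaks did not overlap in position either. Non-overlapping summits were found at 18 of the 614 common regions (2.93%, against 2.95%). The other Fnip2 regions started at 79551831 and 79491602 and differed by 16.6 and 12.9 points.

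Near Tmem154, a region (chr3:84652520-84652969) stood at 52.4 and 49.4 in the KO LPS libraries and 32.3 and 12.5 in the KO untreated libraries, against 4.71 and 4.83 in the WT LPS libraries and 2.13 and 1.30 in the WT untreated libraries (difference 33.4 points, SE 5.76, limma adjusted p = 0.00748). It was thus among the weakest common regions in every WT library. Regions of Gask1b (29.7 points), Fbxw7 (29.3 points) and near Man1a2 (25.7 points) also ranked higher in KO. Gask1b encodes a Golgi kinase, Fbxw7 the substrate receptor of an SCF ubiquitin ligase and Man1a2 a Golgi mannosidase. The start sites of Chtop, an mRNA export factor, and of 4933434E20Rik differed by 8.23 and 15.9 points. The region over the 4933434E20Rik start also covered start-site windows of Ubap2l, which runs on the opposite strand. The Gask1b groups overlapped, because 1 KO LPS library stood at 12.2 and 1 untreated WT library at 12.8.

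The largest difference in the other direction was 5183 bp from Etv3l, a member of the ETS transcription factor family. Its region (chr3:87565995-87566581) stood at 11.96 and 27.0 in the KO LPS libraries and 30.6 and 39.6 in the KO untreated libraries, against 76.3 and 74.9 in the WT LPS libraries and 70.0 and 79.0 in the WT untreated libraries. The difference was -47.8 points (SE 5.70, limma adjusted p = 0.00103), and the groups were far apart. A region inside Tmem131l (chr3:84022595-84023346) stood at 7.24 and 0.0807 in the KO LPS libraries and 9.91 and 8.56 in the KO untreated libraries, against 37.2 and 44.7 in the WT LPS libraries and 51.4 and 52.1 in the WT untreated libraries. Its difference was -39.9 points (SE 4.32), and its adjusted p of 0.000656 was the smallest of the interval in this limma fit.

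Of the other 8 lower regions with the smallest adjusted p, a pair lay in Rapgef2, an exchange factor for the GTPase Rap1, at -6.51 and -4.87 points. Those near Notch2, a receptor that sets cell fate in several blood lineages, and near Fcrls stood at -19.95 and -23.2 points. The Trim59 start site stood at -20.8 points, the Arfip1 start site at -7.51, and regions near the splicing factor gene Bcas2 and near Trim33, which encodes a transcriptional cofactor of SMAD proteins, at -13.6 and -10.7. The Notch2 gene had regions in both directions, since another near it (chr3:97993623-97994310) ranked 18.1 points higher in KO. A region 23643 bp from Tlr2, the receptor for bacterial lipopeptides, ranked 19.9 points higher (chr3:83865294-83865639, limma adjusted p = 0.0326).

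**Figure D3:**
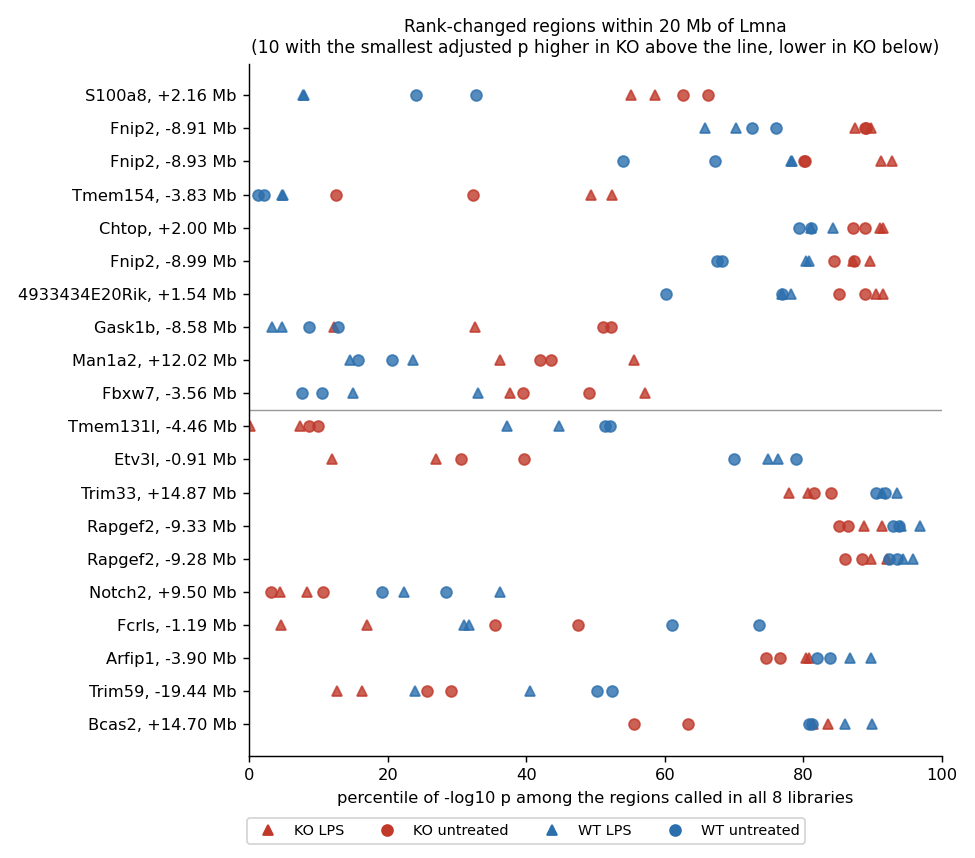
Percentile of -log10 p among the common regions (x axis, 0 to 100) for the 10 regions of the interval with the smallest adjusted p in each direction (y axis, nearest gene and distance from Lmna; points are the 8 libraries, KO red and WT blue, triangles LPS and circles untreated). The S100a8, Tmem131l and Etv3l regions have KO and WT points far apart, while those of Gask1b, Fcrls, Trim59 and Bcas2 overlap.

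Over the interval, all 4 KO percentiles lay above all 4 WT percentiles at 25 common regions (4.07%, against 3.7% of all common regions) and below them at 23 (3.75%, against 3.01%). A difference of at least 20 points was found at 16 regions (2.61%, against 2.66%), of which 10 were on the centromere side (5.65% of its common regions) and 6 on the telomere side (1.37%). The spread of the differences was 8.45 points (SD over regions) in the interval, against 8.27 over all common regions, and 10.1 on the centromere side against 7.70 on the telomere side. Over both sides together, 8.33% of 216 common regions within 5 Mb of Lmna changed rank and 4.02% of 398 from 5 to 20 Mb. On the centromere side, however, the share was 11.3% of 97 within 5 Mb and 12.5% of 80 from 5 to 20 Mb, and within 1 Mb of Lmna on both sides it was 3.70% of 108. On the telomere side it was 5.88% of 119 within 5 Mb, 1.28% of 156 from 5 to 10 Mb, 6.38% of 47 from 10 to 15 Mb and 0.870% of 115 from 15 to 20 Mb. On the rest of chromosome 3 it was 5.64% of 834. There, on the centromere side, it was 11.4% of 35 from 25 to 20 Mb, 0% of 39 from 30 to 25 Mb and 17.6% of 34 from 70 to 65 Mb. High shares on that side were thus not limited to the interval.

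**Figure D4:**
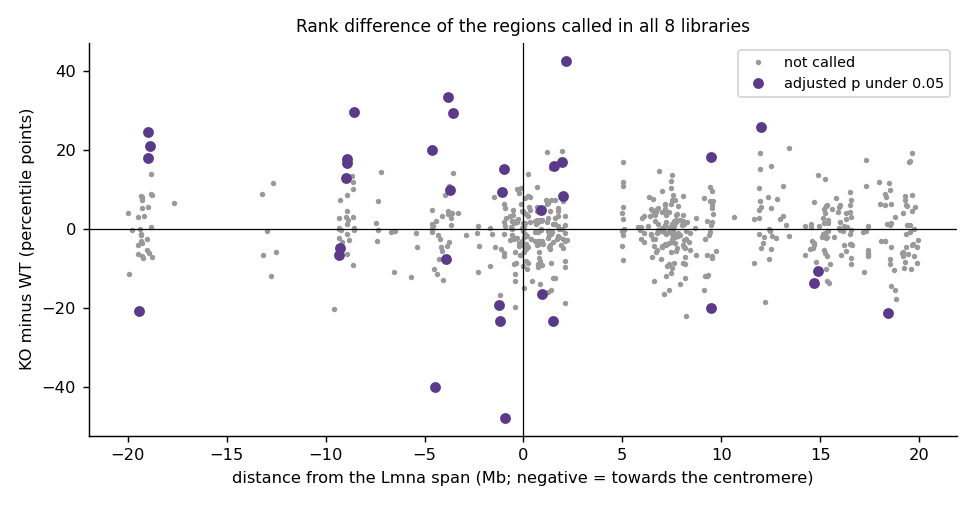
KO minus WT percentile (y axis, percentile points) of the 614 common regions against distance from Lmna (x axis, Mb, negative towards the centromere); large points passed the limma threshold. The 34 rank-changed regions include 21 on the centromere side, where common regions are fewer, and the extremes are 42.5 points at S100a8 and -47.8 points near Etv3l.

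The rank differences of the LPS and of the untreated libraries, which share no library, were set side by side. Across the 614 common regions the correlation was 0.471, against 0.443 across all common regions; it was 0.595 over the 216 within 5 Mb of Lmna and 0.385 over the 398 beyond. These are correlations across regions, which are not independent replicates and share the 8 libraries' ranks. Of 36 regions with a difference of at least 20 points in the untreated libraries, 32 had the same sign after LPS (88.9%, against 85.5% of 1689 over the genome) and 7 also reached 20 points after LPS (19.4%, against 22.1%). Within 5 Mb it was 6 of 15 (40%) and from 5 to 20 Mb 1 of 21 (4.76%). No region of the interval passed the limma test for an interaction of genotype and LPS, as for all 30960 common regions (0%), and at an unadjusted p under 0.05 there were 50 in the interval (8.14%) against 7.67% of all. Fitted alone, neither the LPS nor the untreated libraries gave a call in the interval. Each such fit had 2 libraries a genotype. The count over all 30960 common regions is not given for them, so the lack of calls may not be particular to the interval.

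The calls of LPS against untreated libraries were counted in the same way within each genotype. In KO, 108 regions were LPS-gained (7.55%, against 8.03% of all regions) and 67 LPS-lost (4.68%, against 5.56%). In WT, 118 were LPS-gained (8.25%, against 10.1%) and 87 LPS-lost (6.08%, against 6.02%). The differences from the genome were not tested. By rank, 109 of the 614 common regions were higher with LPS (17.8%, against 18.9% of all common regions) and 132 lower (21.5%, against 20.3%).

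Set among 55 non-overlapping stretches of the same length elsewhere in the genome, the interval had the second largest KO-only share, after a stretch of chromosome 14 with 3 KO-only regions among 294 (chr14:80057571-120086355, 1.02%). The stretch of chromosome 3 just beyond the interval on the telomere side had the third largest, 3 of 1076 (0.279%). The interval stood at position 21 of 56 by WT-only share and at position 10 by the share of rank-changed regions, where the first was the stretch of chromosome 3 next to the centromere (8.41%). By the share with a difference of at least 20 points it stood at position 31. The order is a description and not a test.

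The sides were also placed separately among 120 stretches of the length of 1 side. The centromere side had the largest share of rank-changed regions (11.9%, against a largest of 8.99% and a median of 4.29% elsewhere) and the second largest KO-only share (0.830%). The telomere side stood at position 92 by rank-changed share and at position 9 by KO-only share (0.316%). Among 463 windows of 5 Mb elsewhere, 38 held any KO-only region, and the 5 Mb next to Lmna on the centromere side stood at position 4 by KO-only share and 21 by rank-changed share (11.3%). Farther out on that side, the window from 10 to 5 Mb stood at position 6 by rank-changed share (14.3%) and that from 20 to 15 Mb at position 11 (12.5%). The whole of chromosome 3, with the Lmna span counted, held 12 KO-only regions of its 3859 (0.311%), of which 7 were in the interval, 4 beyond it and 1 in the span. The 18 other autosomes held 1 to 5 each (0.0176% to 0.108%). The rank-changed share of chromosome 3 was 5.58%, against 3.62% to 4.75% on the other autosomes.

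**Figure D5:**
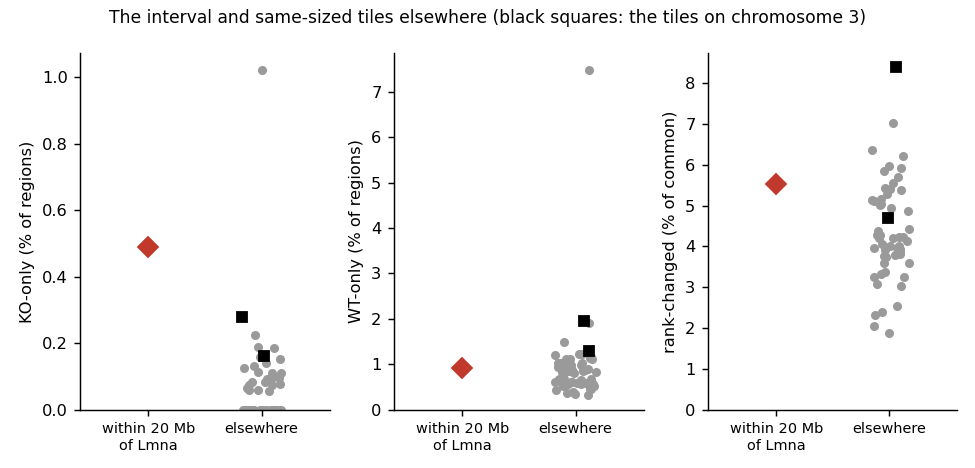
KO-only, WT-only and rank-changed shares (y axes, percent) of the interval (red diamond) and of the 55 stretches of the same length elsewhere (grey points, with those on chromosome 3 as black squares). The interval stands at 0.489% KO-only, second among 56, at 0.908% WT-only, position 21, and at 5.54% rank-changed, position 10.

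The median width of the interval's common regions was 412.5 and 398 bp in the KO LPS libraries and 433.5 and 422 bp in the KO untreated libraries, against 457 and 456 bp in the WT LPS libraries and 464 and 479 bp in the WT untreated libraries. All KO values lay below all WT values (mean difference -47.5 bp), and the exact two-sided permutation p of 0.0556 was the smallest the 36 arrangements allow (0.167 adjusted over 3 such tests). Over all common regions the medians were 407 to 436 bp in KO libraries and 464 to 485 bp in WT libraries. The median percentile of the interval's common regions was 49.3 ± 1.51 in KO and 49.7 ± 1.01 in WT libraries (SD, n = 4 each; exact permutation p = 0.278).

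Of the 1431 regions, 302 lay within 1 kb of a start site (21.1%, against 16.3% of all regions). On the centromere side the share was 16.0% and on the telomere side 23.7%. Of the KO-only regions 2 of 7 and of the WT-only regions 0 of 13 were at a start site. Median width was 397 bp in the interval and 396 bp over all regions, and 54.0% and 56.6% lay inside a gene.

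Regions were assigned to the nearest protein-coding gene within 50 kb, which placed 1378 of the 1431 on 346 of the 498 protein-coding genes of the interval. Of 58 listed myeloid and immune genes in the interval, 55 had a region, with 395 regions in all. Of these genes 4 held a KO-only region (Cd5l, Fcrl1, Ctsk and Ptgfrn) and 3 a WT-only region (Cd5l, Fcrl1 and Fcrls), so that Cd5l and Fcrl1 held both. The 4 KO-only regions were 1.01% of the 395 (against 0.0678% of all regions) and the 3 WT-only regions 0.759% (against 0.861%). After LPS 4 of the genes had a KO-gained and 18 a KO-lost region, and without LPS 5 had a KO-gained and 20 a KO-lost region. The KO-gained regions numbered 4 after LPS (1.01%, against 0.711% of all regions) and 6 without (1.52%, against 0.735%). Of the 395 regions, 24 were KO-lost after LPS (6.08%, against 6.94% of all regions) and 26 without (6.58%, against 6.22%), shares near those of all regions. The KO-lost regions included 3 of 12 assigned to Fcgr1, the high-affinity IgG receptor gene, after LPS, and 2 of 6 assigned to the cytokine subunit gene Il12a without LPS. The 2 assigned to Il12a lay 13564.5 and 9865.5 bp outside the gene, and both KO LPS libraries held the farther one. The median rank difference of the 170 common regions of the listed myeloid and immune genes was -0.0392 points, against -0.233 over all common regions. Csf1, which encodes the growth factor macrophages depend on, held 11 regions and Mef2d 9 without a region that divided the genotypes in any of these ways.

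Of 72 listed genes next to Lmna, 68 held 207 regions. No KO-only region lay there, and the WT-only regions were the 3 at Tmem79, Iqgap3 and Zbtb7b (1.45% of the 207, against 0.861% of all regions). Kcnn3 alone had KO-gained regions, 1 in each treatment, and 14 of the genes had KO-lost regions after LPS and 14 without. These were 15 of the 207 regions in each treatment (7.25%, against 6.94% of all regions after LPS and 6.22% without). The KO-gained share was 0.483% in each treatment, against 0.711% of all regions after LPS and 0.735% without. Of the 46 epidermal differentiation complex genes, a cluster of skin barrier genes, 7 had a region, 17 in all. Of these regions 1 at Hrnr was KO-lost after LPS and 1 at S100a3 without (5.88% each, against 6.94% and 6.22% of all regions). Of 28 cell cycle and chromatin genes, 22 had a region, with 67 in all. None had a KO-only region, and 2 had a WT-only region, Iqgap3 and Zbtb7b (2.99% of the 67, against 0.861% of all regions). KO-lost regions were held by 4 of the genes after LPS and by 5 without. These were 4 of the regions after LPS (5.97%, against 6.94% of all regions) and 8 without (11.9%, against 6.22%). The lists were chosen with earlier results of these data known, so these counts describe the genes and test nothing.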

How the data were processed

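The authors deposited a peak list for every one of the 8 libraries, made with BWA 0.7.12, MACS2 and mm10, per the submitters' processing notes; libraries were amplified by 10 PCR cycles, per the labels. Each deposited peak carried a score, a fold enrichment (ratio to background), a -log10 p, a -log10 q and a summit offset. The -log10 p ranked peaks, the fold enrichment served as an alternative and for description, and the deposited score was not used. The lowest deposited -log10 p was 7.35 to 7.93 by library. Read depth and the filter behind the lists are not given in the sources used here, so precision rests on 2 libraries a group. LPS libraries carry the word untreated in their source names, and titles were followed.

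Peaks overlapping by 1 bp were merged, and a region counted as held where at least 1 peak of the library touched it. Ranks were fitted with limma 3.58.1 (R 4.3.3) with a variance trend, and single values were compared by exact permutation within treatment (scipy 1.17.1). The limma fit was also run on simulated data with planted shifts and independent noise for each region. Its recovery is not given here, so that run does not bear on the calls above. Named were up to 12 KO-only and 12 WT-only regions by mean percentile and the 10 rank-changed regions with the smallest adjusted p in each direction; other names (the single-treatment calls, the second Notch2 region and Tlr2) were chosen after their values were seen. Genes and start sites came from RefSeq (GRCm38.p6); 423 of 498 protein-coding genes of the interval had a sequence window. Alternatives were equal list lengths, stricter calls, other ranks and fits, left-out libraries and other flanks. The members and lists were chosen with earlier results of these data known.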

Additional observations from a re-analysis of the deposited data

How the results depend on the processing

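The 7 KO-only regions numbered 10 with equal list lengths (0.699% of the interval, against 0.223% of all regions). At a -log10 p of at least 20 they numbered 6 (0.419%, against 0.0638%), and with 1 library left out 7 to 10. With a library left out, the call asks for fewer libraries by construction, in the genome as in the interval. Shares over all regions are not given for left-out libraries, so those counts do not compare the interval with the genome. With equal lengths 5 of the 7 named KO-only regions kept their call, and 3 of the 12 named WT-only ones did. With equal lengths there were 3 WT-only regions (0.210%, against 0.151% of all regions). After LPS there were then 33 KO-gained (2.31%, against 1.89%) and 35 KO-lost (2.45%, against 2.23%). Without LPS there were 31 KO-gained (2.17%, against 1.90%) and 53 KO-lost (3.70%, against 2.08%). At a -log10 p of at least 20 there were 21 WT-only regions (1.47%, against 0.704%). With 1 library left out they were 14 to 28 WT-only (28 without the second WT LPS library), 22 to 39 KO-gained and 134 to 199 KO-lost after LPS, 19 to 46 KO-gained and 150 to 177 KO-lost without, 126 to 172 LPS-gained and 87 to 132 LPS-lost in KO, and 135 to 189 LPS-gained and 103 to 144 LPS-lost in WT.

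Rank-changed regions, 20 higher and 14 lower in KO, numbered 10 and 9 by fold enrichment, 13 and 5 without the variance trend, 26 and 23 with normal scores, 17 and 8 at a -log10 p of at least 20, and 0 and 0 with the untreated or the LPS libraries alone. Higher regions numbered 10 without the second KO untreated or the first WT untreated library, 9 without the second WT untreated and 11 without the first WT LPS library (9 to 17 in all). Lower ones numbered 4 to 10, with 4 and 5 without the first and the second WT untreated library, 7 without the second KO untreated or either WT LPS library and 9 without the first KO LPS library. With the replicate number as a block they were 16 and 10. Shares over all common regions are not given for these settings. The counts thus do not show how the interval stood against the genome in them. The rank deviations of same-numbered libraries correlated at -0.083 to 0.026 across regions, so no shared effect of the number on the ranks was seen. These correlations cannot tell whether a number marks a shared animal or day. All 20 named regions kept their direction in every fit that held them, but these fits reuse the libraries by which the regions were chosen. Of the 20, 11 kept their call by fold enrichment, 10 without the variance trend and 12 to 17 with 1 library left out. With the untreated or the LPS libraries alone, 0 kept it.

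The share of peaks in the interval differed by 0.0045 percentage points and reversed with equal lengths (-0.0225), at a -log10 p of at least 20 (-0.00103), without the first KO untreated library (-0.00053) and without the second WT LPS library (-0.000519), with a range of -0.00053 to 0.00953 over left-out libraries. Among same-sized stretches, the interval's position by KO-only share was 1 with flanks of 30 Mb. By WT-only share it was 52 with flanks of 10 Mb (121 stretches elsewhere), 3 with 30 Mb (34 elsewhere), 17 on autosomes alone (51 elsewhere) and 20 with stretches laid from the last base (55 elsewhere). By rank-changed share it was 19, 4, 8 and 9 under the same alternatives, and by differences of at least 20 points 69, 11, 29 and 35. For results that moved, the cause was not tested. Peak lists without read counts limit what can be said of weak regions, which may be missed in the shorter KO lists.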
